A study of Mus musculus with 9 samples.

Results

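The genes described here are 35 genes of DNA replication, out of 18193 genes measured on each array, in heart muscle cells differentiated from mouse embryonic stem cells. They were chosen by name for their known roles, and each gene is read from its brightest probe set, the one with the highest mean over all arrays. The members are 12 origin licensing genes (Orc1, Orc2, Orc6, Cdc6, Cdt1, Gmnn and Mcm2 to Mcm7), 4 genes of helicase activation (Mcm10, Cdc45, Gins1 and Gins2), 5 polymerase and primase genes (Pola1, Prim1, Prim2, Pold1 and Pole), 7 genes of the clamp, its loader and strand joining (Pcna, Rfc3, Rfc4, Rfc5, Rpa2, Fen1 and Lig1), 4 genes of deoxynucleotide supply (Rrm1, Rrm2, Tyms and Tk1) and 3 genes that act at entry into S phase (Ccne1, Ccne2 and E2f1). All 35 were measured, and no gene was removed for low signal.

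Cells had differentiated for 10, 20 or 30 days, and each of these ages has 3 arrays. All 3 groups came from the same line, named synp, which was derived from R1 embryonic stem cells of the strain 129X1 x 129S1 and carries a gene for puromycin resistance driven by the Ncx1 promoter. The cytokines FGF10, bFGF, VEGF, BMP4 and Activin A were given to all groups, and puromycin from day 7, so that a cell had to use the Ncx1 promoter to survive. Ncx1 is the sodium-calcium exchanger listed on the array as Slc8a1, and unselected cells were not analysed here. The labels do not say whether the arrays of an age came from separate cultures, and p-values then reflect only how far these samples spread, which could be technical.

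Before S phase, the origin recognition complex, Cdc6 and Cdt1 load rings of the MCM helicase onto DNA, and this step is called licensing. Cyclin E and its kinase then drive the activation of the helicase, which opens the fork at which the polymerases work with the sliding clamp Pcna and deoxynucleotides made by ribonucleotide reductase and its partners. Many of these genes are transcribed under E2F factors and are repressed by complexes of RB family proteins when cells leave the cycle, and rodent heart muscle cells are known to leave it around birth.

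The signal of the replication genes was lower at day 30 than at day 10, and the size of the difference varied between genes. At day 30 the mean log2 signal of all 35 was below that at day 10, as it was in 9881 of all 18193 genes. The median difference was -1.54, against -0.03 over all genes. In the model fitted to all genes (limma, adjusted p below 0.05), 16 of the 35 fell and 0 rose. Over all genes the shares were 9.92% that fell and 11.2% that rose. The genes that fell were 10 of the 12 licensing genes, 2 of 4 in helicase activation, 0 of 5 polymerase and primase genes, 3 of 7 in the clamp group, 0 of 4 in deoxynucleotide supply and 1 of 3 at entry into S phase. The median differences of these groups were -1.97, -1.65, -1.35, -1.25, -1.17 and -0.68 in the same order, and differences between the groups were not tested. The mean of 25 members was at least 2-fold lower at day 30, and that of 7 at least 4-fold lower. Among those 7, Cdc6, Mcm5 and Rrm2 did not pass the threshold in limma (adjusted p = 0.0684, 0.0671 and 0.143). Genes at these folds were not counted over the whole array. The arrays of day 30 lay wholly below those of day 10 in 23 members, and in 18.8% of all genes. In bulk RNA, fewer cycling cells and less RNA per cell cannot be told apart.

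**Figure D1:**
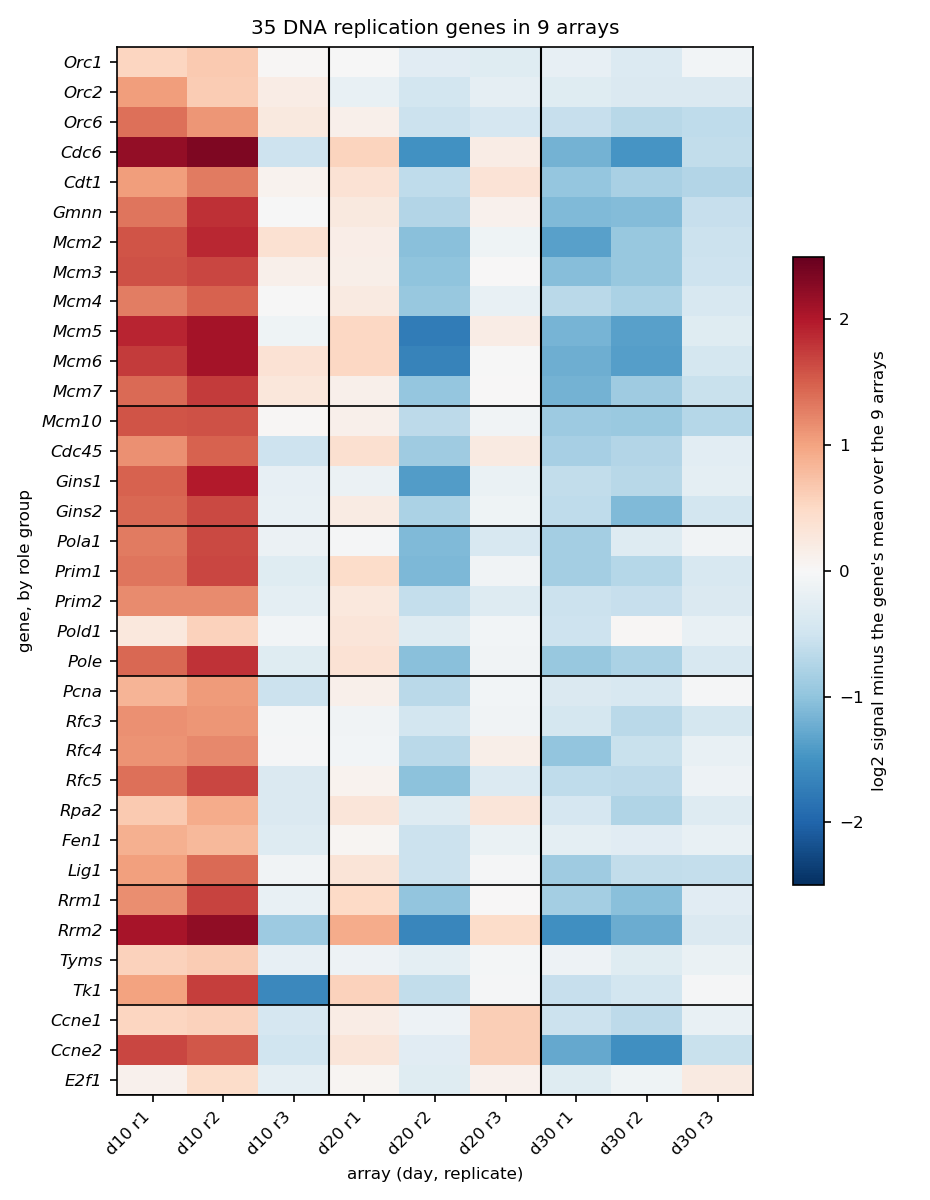
Log2 signal of each of the 35 replication genes (rows, by role group) in each of the 9 arrays (columns, by day and replicate), minus the gene's mean over the 9 arrays. Replicates 1 and 2 of day 10 are above the other 7 arrays in 32 of the 35 genes, and replicate 3 of day 10 is the lowest of its day in all 35.

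The count of 16 depended on single arrays. Replicate 3 of day 10 was the lowest array of its day in all 35 genes, against 39% of all genes, and without it 33 of the 35 passed the threshold. The exceptions were E2f1 (difference -0.34, adjusted p = 0.269) and Pold1 (-0.64, adjusted p = 0.0721). Over all genes, 14.4% fell without this array. Without any 1 of replicates 1 and 2 of day 10 and replicates 1 and 2 of day 30, the count was 6, with 5.84% to 7.67% of all genes falling, and without replicate 3 of day 30 it was 9, with 5.99%. The same 6 genes, Orc2, Orc6, Cdt1, Mcm2, Mcm7 and Mcm10, passed in every setting in which they were tested, which for Mcm10 leaves out the filter on genes above the median of all genes. Their highest adjusted p over those settings was between 0.0288 for Orc6 and 0.0485 for Cdt1. After centring each array on its median, 28 members fell, and so did 22.2% of all genes. That scaling moved the median difference of all genes from -0.03 to -0.19, and genes that fell made up 72.1% of the calls, against 47% without it.

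The promoters of these genes show a feature that the choice of genes did not use. RefSeq windows on GRCm38.p6, from 250 bases before to 50 after the transcription start, were held for 28 of the 35 genes and not for Gmnn, Mcm4, Gins1, Gins2, Prim2, Pole and Ccne2. An E2F motif, spelled TTTCCCGC, TTTCGCGC, TTTGGCGC or TTTGCCGC on either strand, was found in 11 of the 28 (39.3%), against 2.6% of the 27025 genes in the table and 3.81% of the 14453 that were also on the array. Those 11 were Orc1, Cdc6, Cdt1, Mcm3, Mcm5, Mcm6, Mcm7, Pola1, Pold1, Rfc3 and Lig1. A CCAAT box, spelled CCAAT, was found in 17 of 28 (60.7%), against 41.1% of all genes in the table and 42% of those also on the array. The letters TTTGAA, the core of the cell cycle homology motif, were found in 3 of 28 (10.7%), against 20.2% and 15.7%. These are matches of letters, not measured binding, and the median GC content of the windows was 57.3% for the members and 58.3% for genes on the array.

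The bases from -180 to -1 before the start are shown for 6 genes, to set windows with an E2F motif beside windows without one. They lie, in GRCm38.p6, for Orc1 at chr4:108579274-108579453 on the plus strand, Cdc6 at chr11:98907971-98908150 on the plus strand, Mcm6 at chr1:128359706-128359885 on the minus strand, Pola1 at chrX:93632156-93632335 on the minus strand, Pcna at chr2:132253181-132253360 on the minus strand and for Rrm2 at chr12:24708074-24708253 on the plus strand. Capitals mark matches to the E2F motif or the CCAAT box on either strand.
Orc1: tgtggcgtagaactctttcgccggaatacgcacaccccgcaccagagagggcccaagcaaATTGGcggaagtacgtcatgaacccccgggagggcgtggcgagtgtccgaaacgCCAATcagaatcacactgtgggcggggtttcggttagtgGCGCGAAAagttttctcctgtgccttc
Cdc6: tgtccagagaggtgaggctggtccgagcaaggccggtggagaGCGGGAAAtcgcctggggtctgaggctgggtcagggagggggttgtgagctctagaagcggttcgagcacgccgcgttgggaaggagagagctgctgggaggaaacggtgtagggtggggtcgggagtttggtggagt
Mcm6: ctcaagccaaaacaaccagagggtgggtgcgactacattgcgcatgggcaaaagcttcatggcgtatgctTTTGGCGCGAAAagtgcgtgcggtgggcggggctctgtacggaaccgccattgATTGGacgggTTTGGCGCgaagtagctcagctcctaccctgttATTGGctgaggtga
Pola1: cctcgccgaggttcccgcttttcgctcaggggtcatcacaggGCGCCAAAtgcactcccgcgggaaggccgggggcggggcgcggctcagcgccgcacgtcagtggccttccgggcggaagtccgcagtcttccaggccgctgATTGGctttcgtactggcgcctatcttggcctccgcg
Pcna: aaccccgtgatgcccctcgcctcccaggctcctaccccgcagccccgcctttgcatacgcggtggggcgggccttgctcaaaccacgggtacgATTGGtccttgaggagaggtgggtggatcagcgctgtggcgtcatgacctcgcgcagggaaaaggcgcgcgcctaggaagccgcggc
Rrm2: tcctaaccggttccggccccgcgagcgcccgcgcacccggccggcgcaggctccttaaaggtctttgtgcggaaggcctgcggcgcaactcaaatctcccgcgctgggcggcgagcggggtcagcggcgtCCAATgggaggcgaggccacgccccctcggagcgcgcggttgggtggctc
In Orc1 the E2F match (GCGCGAAA as read on the gene's strand) lies at -27 to -20, after CCAAT boxes at -120 to -116 and -66 to -62. The window of Cdc6 has a single E2F match at -138 to -131 and no CCAAT box. Mcm6 has a pair of E2F matches that overlap, at -110 to -103 and -106 to -99, and another at -47 to -40, with CCAAT boxes at -57 to -53 and -14 to -10. In Pola1 the E2F match is at -138 to -131. Neither Pcna nor Rrm2 had an E2F match in the window, and each had 1 CCAAT box, at -87 to -83 in Pcna and -50 to -46 in Rrm2.

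**Figure D2:**
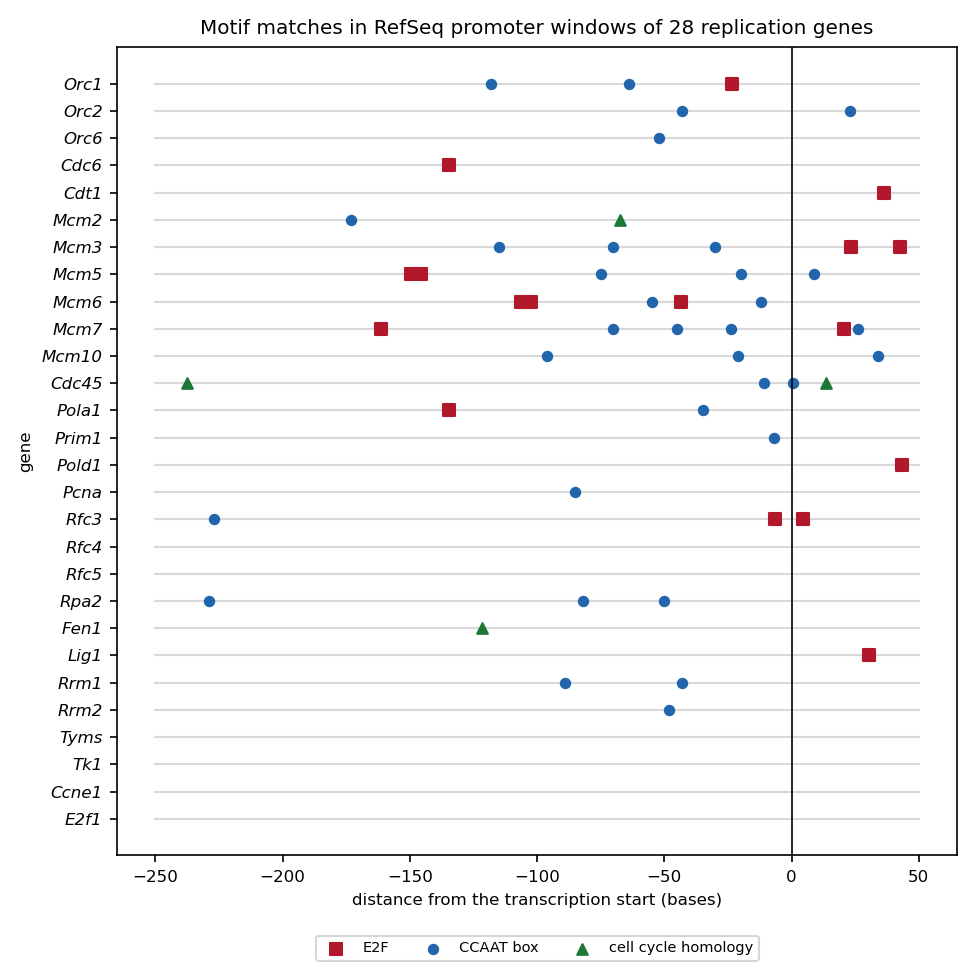
Positions of motif matches (points, coloured by motif) along RefSeq promoter windows of 28 replication genes (rows), in bases from the transcription start at 0. Matches of genes with several windows are drawn on 1 row, and E2F matches occur in 11 of the 28 rows.

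The genes with an E2F match were not the same as those that fell. Of the 11 with a match, 7 fell between day 10 and day 30 and their median difference was -1.65. Of the 17 without one, 5 fell and the median was -1.31. The ranges overlapped, from -2.43 to -0.48 with a match and from -2.23 to -0.16 without. Of the 17 with a CCAAT box 9 fell, with a median of -1.55, and of the 11 without one 3 fell, with a median of -0.73. These counts are descriptions and were not tested.

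Among the licensing genes, those of the origin recognition complex, which marks where replication can start, fell by different amounts. Orc1, its largest subunit, gave log2 signals of 6.42, 6.54 and 5.91 at day 10, 5.88, 5.60 and 5.58 at day 20, and 5.69, 5.54 and 5.81 at day 30. Every day 10 array was above every later array, and days 20 and 30 overlapped. The difference from day 10 to day 30 was -0.61 ± 0.17 (SE, adjusted p = 0.0399), a 1.53-fold lower signal. Another probe set of Orc1 gave -1.61 (adjusted p = 0.0167). Over the alternative settings the adjusted p for Orc1 was between 0.00319 and 0.12. Orc2 fell by 0.97 on the log2 scale (adjusted p = 0.0107) and Orc6, its smallest subunit, fell by 1.55 (adjusted p = 0.00765). At day 30 the 3 arrays of Orc2 had an SD of 0.03 and those of Orc6 one of 0.06, against 0.43 and 0.60 at day 10.

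Cdc6 and Cdt1 load the MCM rings, and Gmnn encodes geminin, which binds Cdt1 and blocks a second round of loading. Cdc6 gave log2 signals of 7.82, 7.96 and 5.10 at day 10, 6.18, 4.11 and 5.81 at day 20, and 4.44, 4.15 and 4.999 at day 30. Replicate 3 of day 10 was close to the highest array of day 30, and 1 array of day 20 was below all of day 30. The difference of Cdc6 was -2.43 ± 0.81 (SE), but with an adjusted p of 0.0684 and a 95% interval from -4.29 to -0.57 it did not pass. Cdt1 gave 10.06, 10.31 and 9.11 at day 10, 9.37, 8.38 and 9.35 at day 20, and 8.04, 8.20 and 8.29 at day 30. All 3 day 30 arrays of Cdt1 lay below all 6 earlier ones. Cdt1 fell by 1.65 (SE 0.35, adjusted p = 0.0136), a 3.13-fold lower signal. Gmnn, the inhibitor, fell by 1.98 (SE 0.46, adjusted p = 0.0192), so that loader and inhibitor were both lower at day 30.

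Mcm2 to Mcm7 form the ring at the heart of the replicative helicase. Mcm2 gave log2 signals of 9.86, 10.16 and 8.67 at day 10, 8.45, 7.24 and 8.17 at day 20, and 6.92, 7.33 and 7.75 at day 30. The day 10 arrays were above all others, and day 20 overlapped day 30 only through its second array. Mcm2 fell by 2.23 (SE 0.45, adjusted p = 0.0105), which is 4.70-fold lower with a 95% interval from 2.31 to 9.58. Mcm3, Mcm4, Mcm6 and Mcm7 fell by 1.97 (adjusted p = 0.0184), 1.54 (0.0336), 2.41 (0.0291) and 2.03 (0.0113). Mcm5 differed by about as much as Mcm2, with a difference of -2.23, but its arrays spread more and it did not pass (adjusted p = 0.0671). Its SD was 1.22 at day 10 and 1.23 at day 20, against 0.79 and 0.64 for Mcm2.

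**Figure D3:**
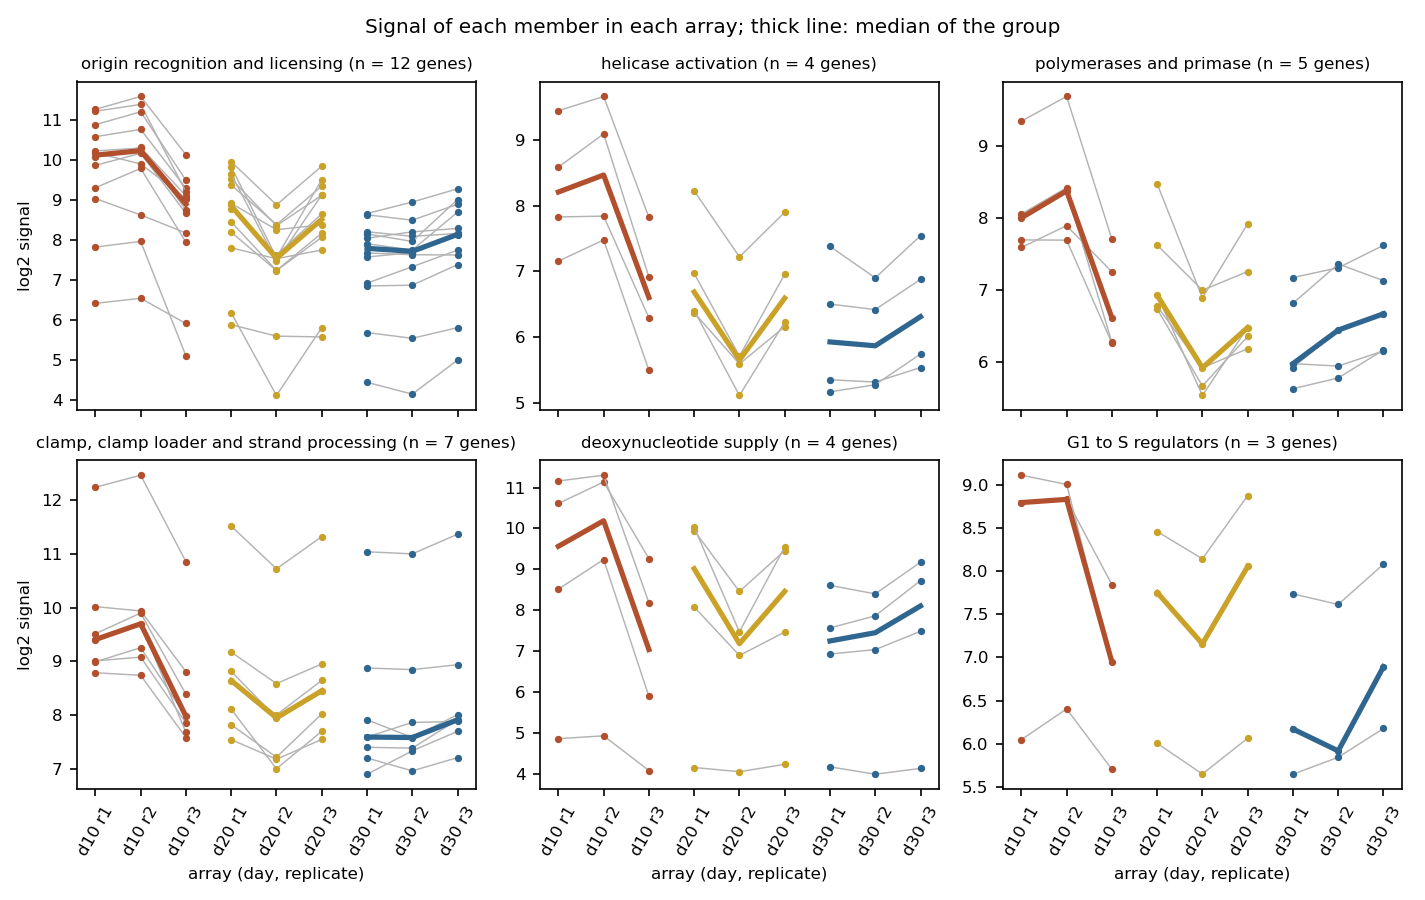
Log2 signal of each member (thin lines) and the median of its role group (thick line) in the 9 arrays, 1 panel for each of the 6 role groups. Lines join values of the same gene for reading only, since replicates of a day have no order, and heights of different genes reflect their probe sets as well as their RNA. In every panel the median line is lower at replicate 3 of day 10 than at replicates 1 and 2.

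Once licensed, the MCM ring is activated by Cdc45 and the GINS complex, with Mcm10 acting at the start of unwinding. Mcm10 gave log2 signals of 7.83, 7.84 and 6.29 at day 10, 6.37, 5.59 and 6.16 at day 20, and 5.35, 5.32 and 5.54 at day 30. All day 30 arrays were below the rest. Mcm10 fell by 1.92 (SE 0.40, adjusted p = 0.0126). Cdc45 gave 7.16, 7.48 and 5.498 at day 10, 6.41, 5.12 and 6.23 at day 20, and 5.17, 5.28 and 5.75 at day 30. Replicate 3 of day 10 lay within the day 30 range. Its difference of -1.31 ± 0.53 (SE) did not pass (adjusted p = 0.122), with a 95% interval from -2.53 to -0.09. The GINS subunits were measured in Gins2, which fell by 1.70 (adjusted p = 0.0389), and Gins1, whose difference of -1.59 did not pass (adjusted p = 0.0796). The adjusted p of Gins2 was between 0.00207 and 0.117 over the alternative settings.

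None of the 5 polymerase and primase genes passed the threshold between day 10 and day 30 in limma, and 4 of them were lower at an unadjusted p below 0.05, as were 30 of all 35 members and 17.3% of all genes. Pole, the catalytic subunit of the leading strand polymerase, gave log2 signals of 8.01, 8.38 and 6.28 at day 10, 6.93, 5.54 and 6.49 at day 20, and 5.64, 5.79 and 6.17 at day 30. Its day 10 arrays all lay above those of day 30, with replicate 3 closest to them. The difference was -1.69 ± 0.55 (SE, adjusted p = 0.064). Pold1, the catalytic subunit of the lagging strand polymerase, gave 7.60, 7.90 and 7.26 at day 10, 7.63, 7.00 and 7.26 at day 20, and 6.82, 7.37 and 7.14 at day 30. Its days overlapped, and its difference of -0.48 ± 0.22 (SE) had a 95% interval from -0.99 to 0.03 (adjusted p = 0.173). Pola1 and the primase genes Prim1 and Prim2, which make the primers, had differences of -1.35, -1.55 and -1.19 with adjusted p of 0.0806, 0.0834 and 0.0624. Without replicate 3 of day 10, Pola1, Prim1, Prim2 and Pole passed, with adjusted p of 0.00585, 0.00793, 0.00223 and 0.00427.

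The sliding clamp Pcna holds polymerases on DNA, and the clamp loader, which contains Rfc3, Rfc4 and Rfc5, opens it. Pcna gave log2 signals of 12.24, 12.46 and 10.86 at day 10, 11.52, 10.72 and 11.32 at day 20, and 11.04, 11 and 11.37 at day 30. Replicate 3 of day 10 was below every day 30 array. The difference was -0.72 ± 0.40 (SE, adjusted p = 0.255), with a 95% interval from -1.64 to 0.21, and it was -1.22 (adjusted p = 0.00843) without that array. Of the loader, Rfc3 fell by 1.25 (adjusted p = 0.0222) and Rfc4 by 1.34 (adjusted p = 0.0362), while Rfc5 had a difference of -1.36 (adjusted p = 0.1). Rpa2, a subunit of the protein that coats single-stranded DNA, had a difference of -0.91 (adjusted p = 0.0903).

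Fen1 and Lig1 finish the lagging strand by trimming flaps and joining fragments. Fen1 gave log2 signals of 10.02, 9.94 and 8.81 at day 10, 9.17, 8.59 and 8.95 at day 20, and 8.88, 8.85 and 8.94 at day 30. Its day 30 arrays lay within 0.09 of each other, and replicate 3 of day 10 was just below them. The difference of -0.70 ± 0.31 (SE) did not pass (adjusted p = 0.147), and another probe set of Fen1 gave -1.82. Lig1 gave 9.51, 9.90 and 8.39 at day 10, 8.81, 7.95 and 8.45 at day 20, and 7.59, 7.86 and 7.88 at day 30. Its day 30 arrays were below the other 6. Lig1 fell by 1.49 (SE 0.37, adjusted p = 0.0257), and its adjusted p was between 0.00136 and 0.083 over the alternative settings.

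**Figure D4:**
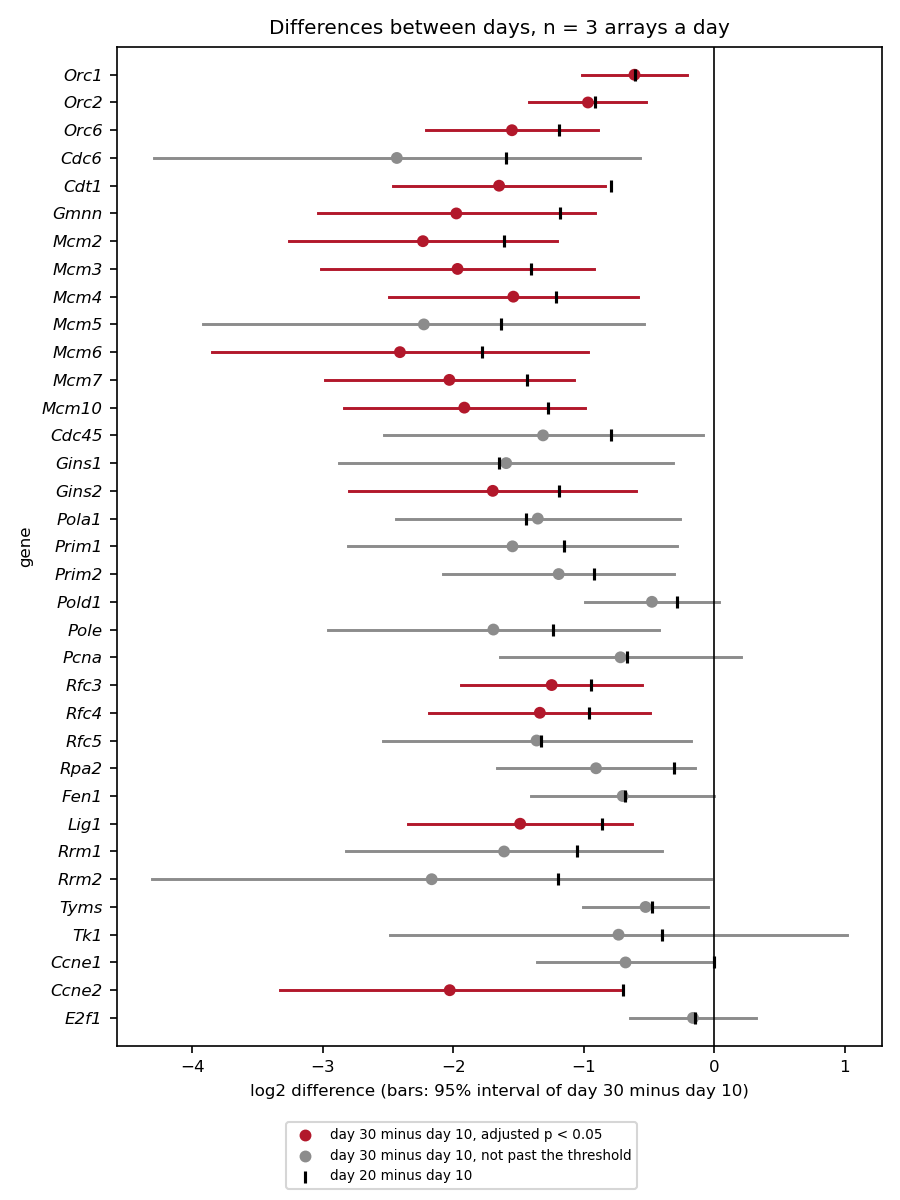
Log2 difference between day 30 and day 10 for each gene (points, with 95% intervals), with the difference between day 20 and day 10 as ticks, n = 3 arrays a day. The points of the 16 genes past the threshold are red, and all 35 points lie below 0.

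None of the 4 genes of deoxynucleotide supply passed in limma, and 3 were lower at an unadjusted p below 0.05, against 17.3% of all genes. Rrm2, the small subunit of ribonucleotide reductase that is made in S phase, gave log2 signals of 11.16, 11.30 and 8.18 at day 10, 10.03, 7.47 and 9.55 at day 20, and 7.57, 7.86 and 8.72 at day 30. Replicates 1 and 2 of day 10 were above all other arrays, and replicate 3 lay inside the day 30 range. The difference was -2.17 ± 0.93 (SE, adjusted p = 0.143), with a 95% interval from -4.31 to -0.02, and it was -3.18 (adjusted p = 0.0143) without replicate 3 of day 10. Rrm1, the large subunit, had a difference of -1.61 (adjusted p = 0.0643).

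Tyms, thymidylate synthase, gave low log2 signals of 4.86, 4.93 and 4.08 at day 10, 4.15, 4.05 and 4.23 at day 20, and 4.17, 3.99 and 4.13 at day 30. It stood above the later values only in replicates 1 and 2 of day 10. Its difference was -0.53 ± 0.21 (SE, adjusted p = 0.114), and its 3 further probe sets differed by -0.67, -0.01 and 0.05. Tk1, the thymidine kinase of the salvage route, is shown because its pattern was noticed in the data. It gave 8.51, 9.24 and 5.89 at day 10, 8.08, 6.89 and 7.46 at day 20, and 6.93, 7.03 and 7.48 at day 30. Replicate 3 of day 10 was the lowest of all 9 arrays, and the difference of -0.73 had a 95% interval from -2.49 to 1.02 (adjusted p = 0.556).

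The regulators of entry into S phase gave differences from -2.03 to -0.16. Ccne2, a cyclin E, gave log2 signals of 9.11, 9.004 and 6.95 at day 10, 7.75, 7.16 and 8.05 at day 20, and 6.17, 5.92 and 6.89 at day 30. Its day 30 arrays lay below the other 6. Ccne2 fell by 2.03 (SE 0.57, adjusted p = 0.0379), with a 95% interval from -3.33 to -0.72 and an adjusted p between 0.00148 and 0.116 over the alternative settings. Ccne1, the other cyclin E, gave 8.79, 8.83 and 7.84 at day 10, 8.46, 8.14 and 8.87 at day 20, and 7.74, 7.61 and 8.08 at day 30. Its means at day 10 and day 20 were both 8.49, and only the day 30 arrays lay below those of day 20. The difference between day 30 and day 10 was -0.68 ± 0.29 (SE, adjusted p = 0.145).

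E2f1, a transcription factor that activates many replication genes, gave log2 signals of 6.05, 6.40 and 5.70 at day 10, 6.01, 5.65 and 6.06 at day 20, and 5.65, 5.84 and 6.18 at day 30. The days overlapped throughout. Its difference of -0.16 ± 0.21 (SE, adjusted p = 0.648) was the nearest to 0 of the 35 genes, and its 95% interval from -0.65 to 0.32 leaves out a 2-fold change. The difference turned to 0.013 without replicate 2 of day 10.

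Other probe sets of the same genes are a second reading of these arrays, though not an independent sample. Of the 35 genes, 26 had at least 2 probe sets, which adds 42 to those used, and 41 of the 42 were lower at day 30 than at day 10, the exception being one of Tyms. The sizes varied. Further probe sets of Orc1 (-1.61) and Fen1 (-1.82) gave larger differences than those used. Further ones of Cdt1 (-0.12), Mcm6 (-0.11), Mcm10 (-0.28 and -0.47) and Pola1 (-0.04), named here after their values were seen, gave differences nearer to 0. These were dim, with mean log2 signals of 3.24, 3.41, 4.42, 4.41 and 3.73 in the same order. The 25th percentile of the means of all genes was 4.66. Brighter further probe sets of Cdt1 and Mcm6 gave -1.86 and -2.43. Differences nearer to 0 were not confined to dim probe sets. A further one of Cdc45, with a mean of 5.93, gave -0.30 against -1.31 in the one used. One of Prim2, with a mean of 5.07, gave -0.15 against -1.19. The remaining 9 genes rest on 1 probe set each. The probe sets of Mcm5, Pold1, Fen1, Rrm2 and Ccne1 carry the ending _x_at, and those of Mcm3, Mcm7 and Gins2 the ending _s_at, which mark probes that may also bind related transcripts. With the mean of a gene's probe sets in place of the brightest, the same 16 genes fell.

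The drop in mean was larger from day 10 to day 20 than from day 20 to day 30 in 31 of the 35 genes. It was larger in the later interval in 4. Over the whole array, the earlier difference was the lower one in 10086 of 18193 genes. Between day 10 and day 20 the median difference was -1.05, and 34 members were below 0, against 10129 of all 18193 genes. Which interval held the larger fall turned on replicate 2 of day 20. Without it the median was -0.74 for the earlier interval and -0.81 for the later one. Mcm2 (-1.61, adjusted p = 0.0487), Orc2 (-0.92, adjusted p = 0.0202) and Orc6 (-1.19, adjusted p = 0.0319) fell, which is 3 of 35, against 6.69% of all genes that fell and 7.3% that rose. The arrays of day 20 lay wholly below those of day 10 in 6 of the 35 members (Orc1, Orc2, Orc6, Mcm2, Mcm7 and Rfc3). This is about the same share as over all genes, where it was 17.3%. The count of members that fell in limma also moved with single arrays. It was 30 without replicate 3 of day 10, where 13.4% of all genes fell. It was 0 without replicate 2 of day 10, replicate 2 of day 20 or replicate 3 of day 20, where 3.41%, 2% and 2.84% of all genes fell. It was 1 without replicate 1 of day 10, replicate 1 of day 30 or replicate 3 of day 30, and 2 without replicate 1 of day 20 or replicate 2 of day 30, where between 3.11% and 5.34% of all genes fell.

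Between day 20 and day 30 the median difference was -0.46 and 33 members were below 0, against 8897 of all 18193 genes. None passed the threshold in limma, where 0.044% of all genes fell, and 3 members fell at an unadjusted p below 0.05, against 4.29% of all genes. The arrays of day 30 lay below those of day 20 in 6 members (Orc6, Cdt1, Mcm10, Lig1, Ccne1 and Ccne2), against 9.72% of all genes. The test of whether the later interval differed from the earlier one called 0 members in limma, and 0.154% of all genes rose and 0.324% fell in that contrast. At an unadjusted p below 0.05 it held 1 member, against 15.5% of all genes. With array weights it called Orc1 and Orc2, both as rising, while 937 of all 18193 genes rose and 5.36% fell. Without replicate 3 of day 10 it called Orc2, Rfc3, Fen1 and Tyms, all as rising, while 886 of all 18193 genes rose and 4.61% fell.

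Replication genes varied between arrays of the same day more than most genes did. The median of their SDs over the 3 ages, in order, came to 0.870, 0.522 and 0.274, against 0.187, 0.130 and 0.137 over all genes. At day 10, 28 of the 35 had an SD above the 90th percentile of all genes, at day 20 it was 27, and at day 30 it was 9. The SD at day 10 was lowest for Pold1 (0.32) and highest for Tk1 (1.76). The members moved together. Replicate 2 of day 20 was the lowest of its day in 34 of 35, against 31.7% of all genes, and replicate 3 of day 30 was the highest of its day in 31, against 33.8%. In 16 members replicate 2 of day 20 lay below every day 30 array, and so it did in 28.9% of all genes.

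**Figure D5:**
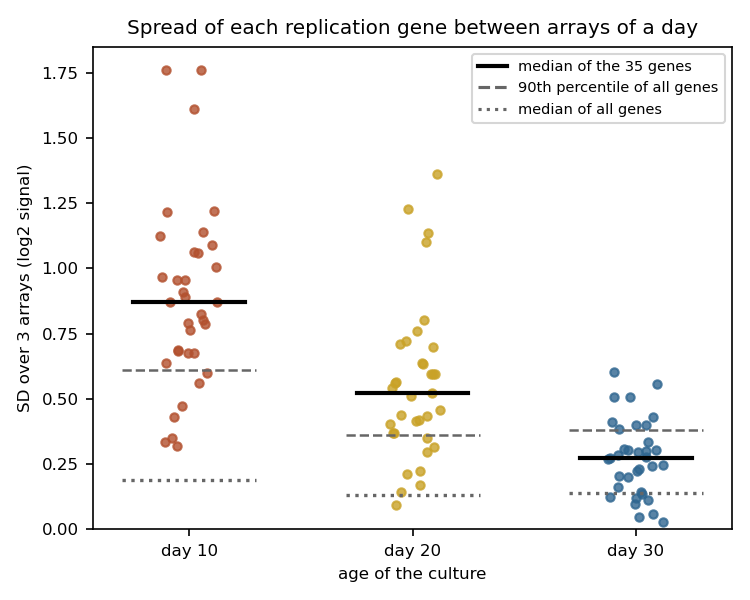
SD over the 3 arrays of a day for each replication gene (points), with the median of the 35 genes (solid line) and the median and 90th percentile of all genes (dotted and dashed). The median of the replication genes drops from 0.870 at day 10 to 0.274 at day 30 and stays above that of all genes.

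Control probe sets and markers of cell types were read in the same arrays. The difference between the 3 prime and 5 prime control probe sets of actin, a sign of RNA integrity, was 0.233, 0.279 and 0.502 in the day 10 arrays, 0.342, 0.589 and 0.466 in those of day 20, and 0.332, 0.789 and 0.431 in those of day 30. Within day 10 and within day 20 it was highest in the array with the lowest replication signal. The same difference for GAPDH was -0.139, -0.216 and -0.143 in the day 10 arrays, -0.189, -0.144 and -0.191 in those of day 20, and -0.198, 0.0564 and -0.176 in those of day 30. Within day 20 it was highest in replicate 2, as for actin, but it did not set replicate 3 of day 10 apart. The 18S control did, with 12.07, 12.08 and 13.44 in the day 10 arrays, but not replicate 2 of day 20, with 12.38, 12.35 and 12.91, and its day 30 values were 12.18, 10.27 and 13.08. The summed signal of 20 cardiomyocyte markers, on the log2 scale, was 16.67, 16.76 and 17.1 in the day 10 arrays, 16.957, 16.935 and 17.234 in those of day 20, and between 17.16 and 17.3 at day 30. The highest sum of day 10 was thus in replicate 3 and the lowest of day 20 in replicate 2, while these were the arrays with the lowest replication signal of their day. All 20 of those markers, which include Tnnt2, Myh6 and Slc8a1, had a mean above the median of all genes at day 30. Between day 10 and day 30, 3 of them rose, against 11.2% of all genes. The summed signal of 19 fibroblast and matrix markers went from 14.15 to 14.36 at day 10, through 15.82 to 16.63 at day 20, to 16.78 to 17.1 at day 30, and 17 of the 19 rose. That of 13 pluripotency markers was 10.35 to 10.97 at day 10. It was 8.96 to 9.3 at day 20 and 9.33 to 9.74 at day 30. Of the 13, 8 fell, against 9.92% of all genes. Of 11 smooth muscle and pericyte markers 3 rose and 2 fell, and of 12 endothelial ones 1 rose and 2 fell. Of 8 epicardial and mesothelial markers 0 rose and 1 fell, and of 9 endoderm ones 1 rose and 0 fell. Of 10 neural markers 1 rose and 2 fell, and of 8 blood markers 0 rose and 0 fell. The part of RNA integrity and of these cell types in the replication values was not tested.

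Of 86 further genes of replication, 83 were measured, and 38 fell and 3 rose between day 10 and day 30. Their median difference was -0.77. Over all genes 9.92% fell and 11.2% rose, and these shares also stand beside the counts of each list below. Between day 10 and day 20, 10 fell and 2 rose, against 6.69% and 7.3% of all genes. Among 16 other origin and firing factors 9 fell, led by Orc5 (-0.68, adjusted p = 0.0039), Mcmbp, which binds MCM proteins (-0.52, 0.0046), Dbf4, the partner of the kinase that fires origins (-2.49, 0.0050), and Donson (-0.79, 0.023). Among 16 other polymerase and strand subunits 5 fell, among them Rpa3 (-0.97, 0.011), Pola2 (-1.10, 0.013), the nuclease Dna2 (-1.96, 0.030) and Rfc1 (-0.42, 0.038). Pold4, a small polymerase delta subunit, rose by 0.83 (adjusted p = 0.031). It gave log2 signals of 7.28, 7.18 and 8.10 at day 10, 8.69, 8.85 and 8.64 at day 20, and 8.39, 8.30 and 8.37 at day 30. The day 10 arrays of Pold4 were below all later ones, while those of the catalytic subunit Pold1 overlapped them.

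Of 15 genes of fork protection and chromatin assembly 7 fell, among them Mms22l (-1.78, adjusted p = 0.0092), the histone chaperone Nasp (-1.31, 0.015), the maintenance DNA methyltransferase Dnmt1 (-1.47, 0.016) and Timeless (-1.70, 0.020). Of 18 further genes of nucleotide synthesis 8 fell, among them Gmps (-0.99, adjusted p = 0.00085), deoxycytidine kinase Dck (-2.12, 0.0013), Cad (-1.30, 0.0023) and Ppat (-1.47, 0.0032). Shmt2, the mitochondrial serine hydroxymethyltransferase, rose by 0.91 (adjusted p = 0.027). Gmps, Cad and Ppat act in the making of purine and pyrimidine rings, which RNA needs as well as DNA. Of 18 further regulators of entry into S phase 9 fell, among them E2f3 (-0.92, 0.0033), Skp2 (-2.39, 0.0071), Cdc25a (-0.99, 0.011) and E2f5 (-0.96, 0.012). Rbl2, an RB family protein found with repressive E2F complexes in resting cells, rose by 1.10 (adjusted p = 0.017), and by 1.18 between day 10 and day 20 (adjusted p = 0.0197).

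Genes of mitosis, which act later in the cycle, were set beside the replication genes. Of 29 measured, 10 fell between day 10 and day 30, against 9.92% of all genes. The median difference was -1.98, and between day 10 and day 20 it was -1.18. Over all genes the median was -0.03 in each of these comparisons. Mki67, a marker of cycling cells, gave log2 signals of 10.30, 11.12 and 8.83 at day 10, 10.13, 8.19 and 9.09 at day 20, and 7.52, 7.996 and 8.80 at day 30 (difference -1.98, adjusted p = 0.071). Top2a, the topoisomerase of dividing cells, gave 10.80, 11.18 and 9.37, then 10.22, 8.09 and 9.26, then 7.57, 8.06 and 8.95, and fell by 2.26 (adjusted p = 0.041). Replicate 3 of day 10 and replicate 2 of day 20 were each the lowest of their day in all 29, as in 35 and 34 of the replication genes. Whether the groups differ in size of change was not tested.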

How the data were processed

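RNA from 9 samples, 3 each at day 10, 20 and 30, was measured on one-colour 3 prime arrays. The log2 values deposited by the authors were used as they stand. Their normalization is not given in the sources used here, and the base was inferred from their range of 2.775 to 14.52. Of 45101 probe sets, 34945 had 1 gene symbol, and the brightest for each symbol gave 18193 genes. The members, lists and tests were chosen with earlier results of these data known. All 9 arrays entered 1 model with a mean per day (limma 3.58.1 under R 4.3.3, lmFit, then eBayes with degrees of freedom of 6 residual and 2.18 prior). Tests were two-sided, with Benjamini-Hochberg adjustment over all genes and a threshold of 0.05. Fold changes are of the fitted log2 means. The fit was tested on simulated data.

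All members are named. Array values are given for the lowest and highest difference of each role group and for Mcm2, Cdt1, Cdc6, Cdc45, Pcna, Fen1, Rrm2, Tyms, Ccne1 and E2f1, and for Tk1, added after its values were seen. Of each further list, up to 4 genes that fell, in order of adjusted p, and all that rose are named. Alternatives covered scaling, filters on dim genes, probe set choice, array weights, variance models, a replicate block, fits of only the days compared and leaving out each array. Replicate numbers were not taken to pair samples across days.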

Additional observations from a re-analysis of the deposited data

How the results depend on the processing

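The medians over the members stayed below 0 under the other scalings, filters, probe set choices, the block and leaving out each array; they were not computed for array weights, the other variance models or the fits of only the days compared. Leaving out 1 array at a time, the median ranged from -1.99 to -1.16 for day 30 against day 10, from -1.52 to -0.74 for day 20 against day 10, and from -0.81 to -0.18 for day 30 against day 20. For day 30 against day 10, the 16 genes that fell became 28 after centring arrays on their median (22.2% of all genes fell), 34 with array weights (17.5%), 10 with the replicate number as a block (8.82%), all of them among the 16, and 9 with only the days compared. Leaving out 1 array gave between 6 and 33. For day 20 against day 10, the 3 that fell became 5 with quantile normalization (8.22% of all genes fell), 9 after centring (12.2%), 5 with genes above the 25th percentile (8.54%), 28 with array weights (16.2%), and 0 with only the days compared. Leaving out 1 array gave between 0 and 30. Shares over all genes were not computed for the fits of only the days compared. Whether the lower counts there are particular to these genes therefore cannot be told. For the later against the earlier interval, the 0 became 2 with array weights (937 of 18193 genes rose), and between 0 and 4 without 1 array. No setting called a member for day 30 against day 20. E2f1 turned from -0.16 to 0.013 without replicate 2 of day 10, and ranged from -0.34 to 0.013 without 1 array. The causes of these changes were not tested. Same-numbered samples correlated between -0.149 and 0.434 in their deviations from the day means, and differently numbered ones between -0.457 and 0.238. Of 9 arrays, 7 correlated best with their own number. The numbers were not taken as pairs in the main model, but these values do not exclude a pairing.

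Only 3 arrays a day limit the precision. No probe-level background was used, so that low signals such as those of Tyms cannot be told from background, and the deposited normalization could not be repeated.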
